A study of Mus musculus with 6 samples.

Results

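The genes described here encode the interstitial matrix of the mammary gland: the collagens, elastic fibre proteins and proteoglycans of the stroma, and the matricellular glycoproteins that bind cells and fibres. They were taken from a list of 45 gene symbols, and each was represented by the probe set (the group of array oligonucleotides designed against 1 transcript) with the highest mean over all arrays among those annotated to that symbol alone. This gave 42 genes of the 18193 measured: 13 collagens, 12 elastic fibre genes, 7 proteoglycans and 10 adhesive or matricellular genes. Fbn1, Efemp2 and Loxl2 were not analysed here. Messenger RNA came from whole mammary glands of virgin female FVB/N mice, 4 months old, 3 wild type (WT 1 to 3) and 3 lacking caveolin-3, the caveola coat protein of muscle (Cav-3KO 1 to 3). Each gland was read on 1 array, no gland was treated, and nothing in the labels states that the glands are from separate animals. P-values therefore measure the spread between these samples, which may in part be technical. The labels also do not say in which cells or by which allele caveolin-3 was lost.

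Interstitial collagens form cable-like fibrils, of which types I and III are the main body and type V the nucleus, while type VI makes beaded filaments around cells. Elastic fibres are an elastin core on a scaffold of fibrillins, fibulins and microfibril-associated proteins, cross-linked by lysyl oxidases. Small leucine-rich proteoglycans coat collagen fibrils and set their thickness. Matricellular proteins such as thrombospondins and tenascins do little to bear load and instead change how cells attach and signal. In the mammary gland these genes are expressed mainly by fibroblasts, in the sheath around the ducts and between fat lobules.

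Arrays were close in overall level, with medians of 5.773 to 5.804 on the log2 scale, and correlated at 0.990 to 0.995 within a genotype and 0.977 to 0.987 between genotypes. The Cav3 probe set read 4.79, 5.02 and 4.74 in WT 1 to 3 and 4.76, 4.83 and 4.72 in Cav-3KO 1 to 3. The groups overlapped (adjusted p = 0.679), so this probe set does not check the genotype. Markers of a mammary gland were present: Adipoq, the adipocyte hormone adiponectin, lay between 12.64 and 13.25, and Krt8, a luminal keratin, between 11.41 and 12.70. Both were chosen here as defining markers of the tissue.

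The matrix genes did not differ in 1 direction between knockout and wild-type glands. In knockout 5 of the 42 genes were higher (11.9%, against 7.65% of all genes) and 6 were lower (14.3%, against 8.51% of all genes), by limma with p-values adjusted over all probe sets at 0.05. The genes that rose were Thbs1, Tnc, Fbn2, Fmod and Col16a1, and those that fell were Col8a1, Efemp1, Thbs3, Tnxb, Sparcl1 and Tgfbi. The median difference over the 42 genes was 0.14 (knockout minus wild type, log2), against −0.01 over all genes, and it was −0.03 without Cav-3KO 1, 0.01 without WT 2, 0.08 without Cav-3KO 3 and 0.28 without Cav-3KO 2. The higher count fell to 2 without WT 3 or Cav-3KO 3 and to 3 without WT 2. Over all 18193 genes 1392 were higher with all arrays, 660 without WT 3, 629 without Cav-3KO 3 and 729 without WT 2. The lower count was 4 without WT 1, WT 2 or Cav-3KO 3. Over all genes 1549 were lower with all arrays, 970 without WT 1, 951 without WT 2 and 606 without Cav-3KO 3. Counts over all genes thus fell in these fits too. In 5 genes every knockout array lay above every wild-type array (11.9%, against 18.5% of all genes), and in 10 every knockout array lay below (23.8%, against 19.8%). Nothing particular to the matrix as a list is read from these shares. With 3 arrays against 3, an exact permutation test of a single gene cannot give p below 0.1 (two-sided), so calls rest on the limma fit, which borrows the spread across all probe sets.

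**Figure D1:**
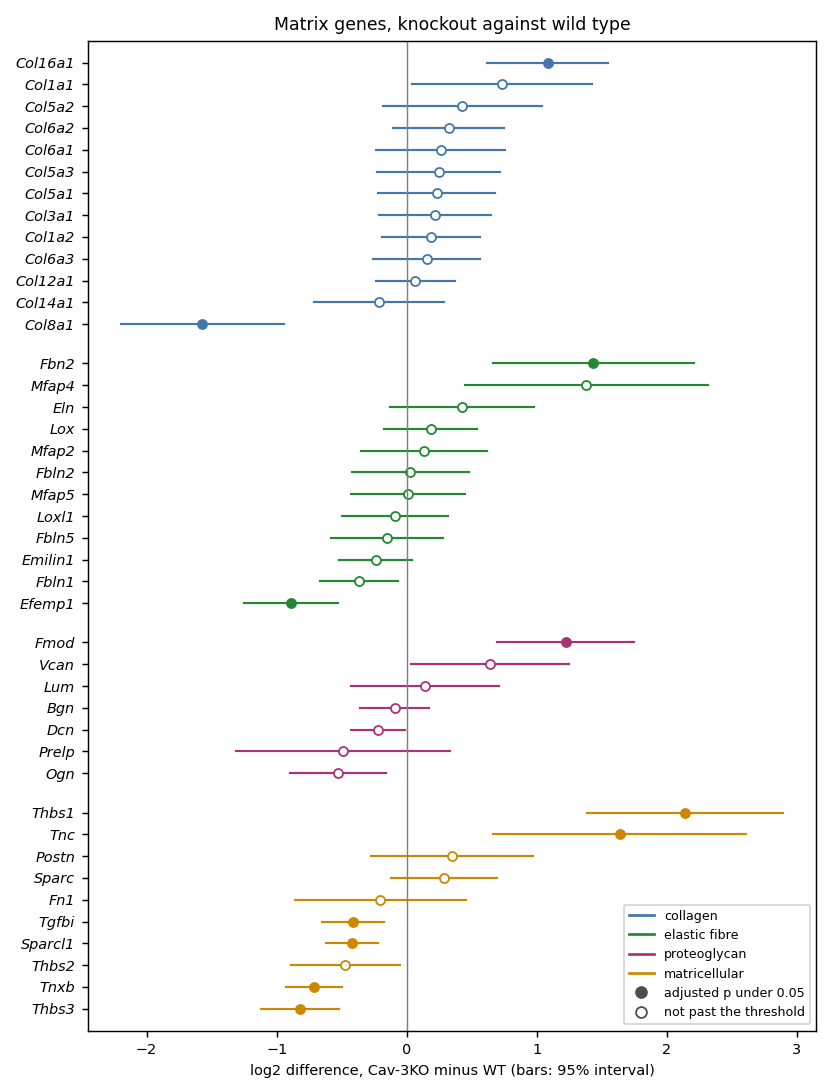
Log2 difference (Cav-3KO minus WT, n = 3 arrays each) of the 42 matrix genes by class, with 95% intervals from the limma fit and filled points for genes past the adjusted threshold. Of the 13 collagens only Col16a1 (higher) and Col8a1 (lower) are filled, 7.69% each way. Of the 10 matricellular genes 2 are filled as higher (20%) and 4 as lower (40%). Over all genes 7.65% were higher and 8.51% lower.

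The bases just upstream of the annotated start are shown for 4 of the genes that changed, as the DNA next to genes that moved in opposite directions. They are the 2 largest rises (Tnc and Fmod) and the 2 largest falls (Col8a1 and Thbs3) among changed genes that have an entry in the RefSeq promoter table (build GRCm38.p6) whose window lies outside the gene's own span. Each is 250 bases, 5′ to 3′ on the gene's strand, ending just before the start, and capitals mark 4 motifs searched on both strands. The motifs are TATAAA (the TATA box), CCAAT (the CCAAT box), GGGCGG (the GC box that Sp1 binds) and CAGACA (a Smad-binding motif). Thbs1, Fbn2 and Sparcl1, which also changed, have no entry.
Tnc, chr4:64047016-64047265, minus strand: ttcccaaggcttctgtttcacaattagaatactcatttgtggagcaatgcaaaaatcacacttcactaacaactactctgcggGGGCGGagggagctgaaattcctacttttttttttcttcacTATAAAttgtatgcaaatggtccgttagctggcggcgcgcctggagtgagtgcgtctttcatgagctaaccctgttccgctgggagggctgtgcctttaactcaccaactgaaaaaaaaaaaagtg
Fmod, chr1:134037004-134037253, plus strand: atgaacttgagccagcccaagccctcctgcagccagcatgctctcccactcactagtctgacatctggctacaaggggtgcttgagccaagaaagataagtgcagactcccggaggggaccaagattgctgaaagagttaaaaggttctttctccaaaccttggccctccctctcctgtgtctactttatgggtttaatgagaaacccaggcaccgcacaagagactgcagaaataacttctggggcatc
Col8a1, chr16:57754738-57754987, minus strand: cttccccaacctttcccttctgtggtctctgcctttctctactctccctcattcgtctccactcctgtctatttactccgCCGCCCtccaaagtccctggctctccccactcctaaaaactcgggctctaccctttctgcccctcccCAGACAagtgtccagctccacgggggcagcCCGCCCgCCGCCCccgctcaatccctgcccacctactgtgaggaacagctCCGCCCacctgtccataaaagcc
Thbs3, chr3:89214930-89215179, plus strand: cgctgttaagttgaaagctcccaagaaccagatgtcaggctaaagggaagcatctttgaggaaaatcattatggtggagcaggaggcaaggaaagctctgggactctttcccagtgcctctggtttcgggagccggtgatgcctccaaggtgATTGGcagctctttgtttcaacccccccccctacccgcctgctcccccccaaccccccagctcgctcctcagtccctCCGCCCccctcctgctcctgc

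The Tnc window, which overlaps the annotated gene 8030451A03Rik and belongs to the upstream of 2 annotated starts, held GGGCGG 167 bases and TATAAA 126 bases before the start. The Fmod window held none of the 4 motifs. The Col8a1 window held GGGCGG on the opposite strand 4 times, 170, 73, 66 and 23 bases before the start, and CAGACA at 103. The Thbs3 window held CCAAT at 98 and GGGCGG at 21, both on the opposite strand. Over the 27 matrix genes with an entry, GGGCGG was found in 14 windows and CAGACA in 9, that is 51.9% and 33.3%, against 33% and 17.1% of 27025 windows of all genes. CAGACA was in 0 of 3 higher genes, 1 of 5 lower genes and 8 of 19 genes that did not pass the threshold. GGGCGG was in 2, 4 and 8 of these. TATAAA was found in 14.8% of the 27 (all genes 13%) and CCAAT in 33.3% (all genes 34.5%). A match describes the letters only.

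None of the chains of collagen types I and III passed the test. Col1a2, a chain of type I collagen and the collagen gene with the highest mean signal, read 13.44, 12.96 and 13.32 in WT 1 to 3 and 13.63, 13.15 and 13.49 in Cav-3KO 1 to 3. The groups overlapped, and the difference of 0.19 ± 0.16 (SE, 95% interval −0.19 to 0.56) did not pass (adjusted p = 0.528). Dimmer Col1a2 probe sets differed by 1.05 ± 0.37 and 0.35 ± 0.09 (adjusted p = 0.111 and 0.0505), so the size depends on the probe set. Col1a1, the other type I chain, whose arrays are given here for its size, read 11.91, 10.90 and 11.62 against 12.67, 11.72 and 12.23. Its difference of 0.73 ± 0.30 had a 95% interval of 0.04 to 1.43 and an adjusted p of 0.159, and Cav-3KO 2 lay below WT 1. All 7 probe sets of Col1a1, Col1a2 and Col3a1 had differences above 0, from 0.19 to 1.05, and 0 of them passed by limma (3 genes, lowest adjusted p = 0.0505). Of all genes 48.4% had differences above 0. The interval of Col1a1 reaches beyond a doubling of signal, so the data do not show that type I collagen was equal in the 2 genotypes.

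On their brightest probe sets the other fibril and filament collagens differed by small amounts, none past the threshold. Col3a1, which forms fibrils with type I, differed by 0.22 ± 0.19 (SE), and by 0.57 ± 0.34 on a dimmer probe set. The chains of type V, which start fibrils, differed by 0.23 ± 0.19 for Col5a1, 0.43 ± 0.26 for Col5a2 and 0.25 ± 0.20 for Col5a3. Their dimmer sets gave 0.37 and 0.43 for Col5a1, 0.63 for Col5a2 and −0.34 for Col5a3, none past the threshold. The chains of type VI differed by 0.26 ± 0.21 for Col6a1, 0.32 ± 0.18 for Col6a2 and 0.15 ± 0.18 for Col6a3. Col12a1 and Col14a1, which lie on the surface of fibrils, differed by 0.07 ± 0.13 and −0.21 ± 0.22. By sign 11 of the 13 collagens were above 0, and of all genes 48.4% were. The collagens moved together between arrays, as given below, so these signs are not separate observations. The median collagen difference was 0.23 (0.07 without Cav-3KO 1, 0.08 without WT 2 and 0.39 without Cav-3KO 2). Adjusted p by limma for the 11 that did not pass lay between 0.159 and 0.803.

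The exceptions among the collagens went in opposite directions. Col8a1 (Entrez 12837) encodes a short network-forming collagen of vessel walls and of the basement layer of the cornea. It read 8.20, 8.23 and 7.88 in WT 1 to 3 and 7.21, 6.28 and 6.09 in Cav-3KO 1 to 3. All 3 knockout arrays lay below all wild-type arrays, and the fall of 1.57 ± 0.27 on the log2 scale (SE, 95% interval −2.20 to −0.95) made it 2.97-fold lower (adjusted p = 0.0112). Its other 2 probe sets passed as well, at −1.24 and −0.46 (adjusted p = 0.0342 and 0.0287).

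Col16a1 (Entrez 107581), a collagen that attaches to fibrils and to fibrillin microfibrils, read 9.44, 8.90 and 9.29 in wild type and 10.46, 9.89 and 10.54 in knockout. The groups did not overlap, and it rose by 1.08 ± 0.20 (SE, 95% interval 0.62 to 1.55), 2.12-fold (adjusted p = 0.0147, and 0.0594 without Cav-3KO 3). It is read by 1 probe set, of a kind that can match several transcripts. With Col8a1 it made 1 higher and 1 lower among 13 collagens, 7.69% each way, which is near the 7.65% and 8.51% of all genes.

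The collagens moved together from gland to gland inside each genotype. WT 2 gave the lowest of the 3 wild-type values for 12 of 13 collagens and Cav-3KO 2 the lowest knockout value for 12 of 13. WT 1 gave the highest wild-type value for 11 and Cav-3KO 1 the highest knockout value for 12. The median collagen lay 0.29 below its group mean in WT 2 and 0.31 below in Cav-3KO 2, while it lay 0.35 above in Cav-3KO 1. These shifts between glands of a genotype are as large as the median collagen difference of 0.23 between genotypes. Arrays WT 2 and WT 1 also differed in their luminal epithelial markers, with a list mean of 8.90 against 9.42, and in their skeletal muscle markers, 8.84 against 7.78. Their fibroblast markers were alike, 8.57 against 8.58. WT 3, whose collagen mean of 10.47 lay between 10.16 in WT 2 and 10.64 in WT 1, had 9.12 for luminal and 5.43 for muscle markers. Its fibroblast mean was 8.53. In Cav-3KO 1 to 3 the collagen means were 10.96, 10.26 and 10.55. Fibroblast means there were 8.37, 8.17 and 8.19, and luminal means 10.20, 9.92 and 10.04. All these lists were thus highest in Cav-3KO 1 and lowest in Cav-3KO 2. Muscle means ran in another order, 4.96, 6.44 and 6.997. The part of epithelium, muscle or fibroblasts in the collagen values was not tested.

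**Figure D2:**
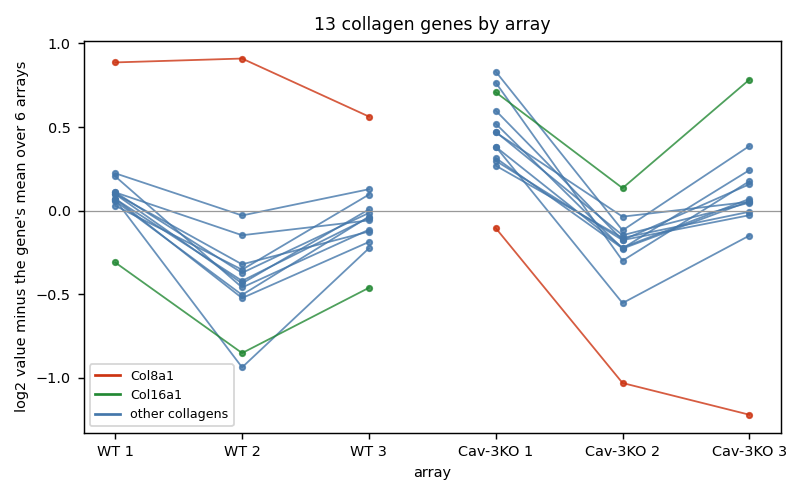
Log2 value of each of the 13 collagen genes minus that gene's mean over the 6 arrays, by array, with a line joining the values of 1 gene within a genotype. Most lines dip at WT 2 and at Cav-3KO 2, while Col8a1 is high in all wild-type arrays and Col16a1 in all knockout arrays.

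Of the 12 elastic fibre genes, 1 was higher and 1 lower (8.33% each way, against 7.65% and 8.51% of all genes). The median difference was 0.02, and it ran from −0.16 without Cav-3KO 1 to 0.23 without Cav-3KO 2. The higher count was 0 without WT 2, WT 3, Cav-3KO 1 or Cav-3KO 3 and 2 without Cav-3KO 2. Fbn2 (Entrez 14119), the fibrillin used mainly in developing tissue, read 6.11, 4.99 and 5.56 in wild type and 7.46, 6.38 and 7.13 in knockout. Its groups did not overlap and it rose by 1.43 ± 0.33 (SE), 2.70-fold (adjusted p = 0.0310). The call was lost without WT 2, WT 3, Cav-3KO 1 or Cav-3KO 3 (adjusted p = 0.0826, 0.0920, 0.0802 and 0.108) and when the prior variance was made to depend on intensity (0.0577). Its wild-type values were near or below the array medians, where RMA compresses folds, and its second probe set differed by 1.08 (adjusted p = 0.0554).

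Efemp1 (Entrez 216616), which encodes fibulin-3, a glycoprotein of elastic tissue and fascia, read 10.99, 11.09 and 10.85 in wild type and 10.36, 10.14 and 9.76 in knockout. All knockout arrays were lower, and it fell by 0.89 ± 0.16 on the log2 scale (SE, 95% interval −1.25 to −0.53), to a signal 1.85-fold lower (adjusted p = 0.0120). Mfap4, which binds elastin and microfibrils and is detailed here for its size, read 6.46, 5.90 and 5.88 in wild type and 8.09, 6.42 and 7.87 in knockout. Cav-3KO 2 lay within the wild-type range, and the difference of 1.38 ± 0.40 missed the threshold (adjusted p = 0.0645, and 0.00251 without Cav-3KO 2). Loxl1, a cross-linking enzyme of elastic fibres and the class member with the highest mean signal, read 11.37, 11.08 and 11.35 against 11.54, 10.84 and 11.15. Its difference was −0.09 ± 0.18, with overlapping groups (95% interval −0.50 to 0.32).

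The remaining elastic fibre genes had differences between −0.36 and 0.42, none past the threshold. Eln, elastin itself, differed by 0.42 ± 0.24 and Lox, the main cross-linking oxidase, by 0.19 ± 0.15. Dimmer probe sets gave 0.02 ± 0.12 for Eln, and −0.30 ± 0.17 and −0.05 ± 0.15 for Lox, none past the threshold. The sign for Lox thus depends on the probe set. Eln read 8.42, 8.48 and 8.37 in wild type, and in knockout it was 9.45 in Cav-3KO 1 against 8.39 and 8.70 in the other glands. The microfibril genes Mfap2 and Mfap5 differed by 0.13 ± 0.21 and 0.01 ± 0.19. The fibulin genes Fbln1, Fbln2 and Fbln5 differed by −0.36 ± 0.13, 0.03 ± 0.19 and −0.15 ± 0.19, and Emilin1, a glycoprotein at the surface of elastic fibres, by −0.24 ± 0.12. For Fbln1 all knockout arrays were below all wild-type arrays at an adjusted p of 0.111.

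Among the 7 proteoglycans 1 was higher (14.3%, against 7.65% of all genes) and 0 were lower by limma (8.51% of all genes were lower, and 2 proteoglycans were at an unadjusted p under 0.05), with a median of −0.09. Without WT 3 the higher count was 0 and without Cav-3KO 2 it was 2, while 1 was lower without Cav-3KO 1. The median was −0.02 without WT 1, −0.03 without Cav-3KO 2 and −0.18 without Cav-3KO 1. Fmod (Entrez 14264), fibromodulin, which steers collagen fibril assembly and cross-linking, read 7.62, 7.75 and 7.44 in wild type and 8.64, 8.45 and 9.39 in knockout. The groups did not overlap and it rose by 1.22 ± 0.23 (SE, 95% interval 0.70 to 1.75), 2.33-fold (adjusted p = 0.0146, and 0.0571 without WT 3). Its 6 probe sets had differences of 0.99 to 1.24. The only 1 of them not of the kind that can match several transcripts gave 1.002 (adjusted p = 0.0944, or 0.0975 when only such sets were fitted).

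Dcn, decorin, the proteoglycan that decorates collagen fibrils and the class member with the highest mean signal, read 13.67, 13.57 and 13.64 in wild type and 13.52, 13.35 and 13.35 in knockout. The groups did not overlap, but the difference of −0.22 ± 0.09 did not pass (adjusted p = 0.151). A second, dimmer Dcn probe set differed by −0.69 (adjusted p = 0.0224), so the 2 sets disagree on the call and not on the sign. Ogn, the related osteoglycin, differed by −0.53 ± 0.16 (adjusted p = 0.0694), again without overlap. Lum and Bgn, which share the leucine-rich fold of decorin, differed by 0.14 ± 0.25 and −0.09 ± 0.11. Prelp, which anchors basement membranes to connective tissue, differed by −0.49 ± 0.36, with 10.73 in WT 3 against 9.54 and 9.53 in the other wild-type glands. Vcan, the large hyaluronan-binding versican, differed by 0.64 ± 0.26 (adjusted p = 0.160). Other Vcan probe sets of similar signal gave 0.62 and 0.44. Its dim sets, with means of 2.33 to 3.28, ran from −0.37 to 0.25, and the set at −0.37 passed (adjusted p = 0.0497).

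Of the 10 matricellular genes, 2 were higher (20%, against 7.65% of all genes) and 4 lower (40%, against 8.51%), with a median of −0.31. Leaving out any 1 array gave 2 or 3 lower (2 without WT 1, WT 2 or Cav-3KO 3), and 1 higher without WT 1, WT 2, WT 3 or Cav-3KO 3. The median ran from −0.45 without Cav-3KO 1 to −0.15 without Cav-3KO 2. Within 2 of their families relatives moved in opposite directions. Thbs1 (Entrez 21825), thrombospondin-1, which activates latent TGF-beta and restrains vessel growth, had the largest rise of all 42 genes. It read 4.88, 4.59 and 4.71 in WT 1 to 3 and 7.62, 6.11 and 6.86 in Cav-3KO 1 to 3. All knockout arrays lay above all wild-type arrays, and the rise of 2.14 ± 0.33 (SE, 95% interval 1.39 to 2.90) was 4.41-fold (adjusted p = 0.00733). A second probe set rose by 1.18 (adjusted p = 0.0235). Wild-type values were below the array medians, where RMA understates folds.

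Thbs3 (Entrez 21827), a thrombospondin of skeletal and connective tissue, went the other way. It read 8.06, 8.08 and 7.91 in wild type and 6.99, 7.45 and 7.15 in knockout, without overlap, and fell by 0.82 ± 0.13 on the log2 scale (adjusted p = 0.00837), 1.77-fold lower. Thbs2, the closest relative of Thbs1, differed by −0.47 ± 0.18 without overlap between groups (adjusted p = 0.135). Its other 2 probe sets, both dimmer, passed at −0.72 and −0.64 (adjusted p = 0.0205 and 0.0221), so for Thbs2 the call depends on the probe set.

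Of the tenascins, Tnc rose and Tnxb fell. Tnc (Entrez 21923), made in growing and remodelling tissue, read 5.39, 5.64 and 5.46 in wild type and 6.34, 8.25 and 6.82 in knockout. The groups did not overlap, and Cav-3KO 2 stood above the other knockout glands. The rise of 1.64 ± 0.42 (SE, 95% interval 0.67 to 2.61), 3.11-fold, had an adjusted p of 0.0424, with 1.83 (adjusted p = 0.0207) from a second probe set. The wild-type values lay below the array medians, where RMA understates folds. The call was lost without WT 1, WT 2, WT 3 or Cav-3KO 3 (adjusted p = 0.112, 0.0945, 0.120 and 0.0897) and with the intensity-dependent prior (0.0966). Tnxb (Entrez 81877), which links collagen fibrils in loose connective tissue, read 11.41, 11.39 and 11.32 in wild type and 10.73, 10.74 and 10.52 in knockout. It was 1.64-fold lower, a fall of 0.71 ± 0.09 on the log2 scale (adjusted p = 0.00472), larger than the spread within either group.

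Sparcl1 (Entrez 13602), an anti-adhesive relative of osteonectin made by vessels and stroma, read 10.58, 10.70 and 10.58 in wild type and 10.25, 10.13 and 10.21 in knockout, and fell by 0.42 ± 0.09 (adjusted p = 0.0203). Leaving out WT 1, WT 2, WT 3 or Cav-3KO 3 gave adjusted p of 0.0553, 0.0677, 0.0578 and 0.0660. Tgfbi (Entrez 21810), a TGF-beta-induced adhesion protein, read 11.17, 11.33 and 11.02 against 10.82, 10.73 and 10.73, and fell by 0.41 ± 0.10 (adjusted p = 0.0395). Without WT 1, WT 2, Cav-3KO 1, Cav-3KO 2 or Cav-3KO 3 its adjusted p was 0.102, 0.111, 0.0650, 0.0723 and 0.120. With all arrays, its other probe sets differed by −0.54, −0.63 and −0.47 (adjusted p = 0.0321, 0.0402 and 0.0725). For these genes the groups did not overlap, and the differences were smaller than for the other falls.

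Sparc, osteonectin, which binds collagen and is the matricellular gene with the highest mean signal, read 13.13, 12.81 and 13.23 against 13.63, 13.005 and 13.39. Its groups overlapped, with a difference of 0.28 ± 0.18 (adjusted p = 0.352). Postn, periostin, a partner of collagen and fibronectin, differed by 0.35 ± 0.27. Fn1, fibronectin, the adhesive glycoprotein on which collagen assembles, differed by −0.20 ± 0.28. The 2 genes last named did not pass (adjusted p = 0.465 and 0.712).

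**Figure D3:**
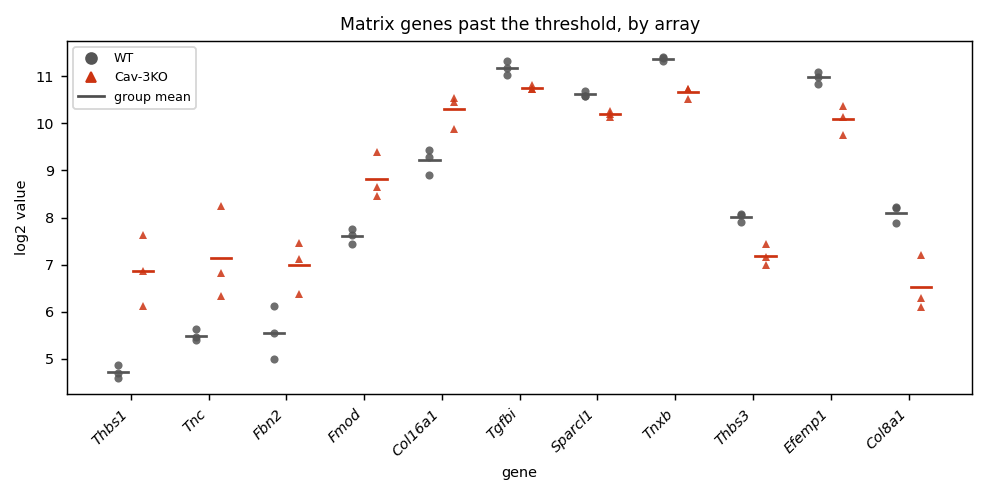
Log2 value of each array for the 11 matrix genes past the threshold, ordered from the largest rise to the largest fall, with circles for WT, triangles for Cav-3KO and bars for group means (n = 3). For each gene the groups do not overlap, and Thbs1 and Tnc are spread more widely in knockout than in wild type.

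Knockout glands varied more among themselves than wild-type glands for most of these genes. The SD over 3 arrays was larger in knockout for 33 of 42 genes (78.6%, against 59.7% of all genes), with a median SD of 0.37 in knockout and 0.17 in wild type. Cav-3KO 1 held the highest knockout value for 34 of the 42 and Cav-3KO 2 the lowest for 29. The largest knockout SD values were those of Tnc (0.99), Mfap4 (0.90) and Thbs1 (0.75). The difference in spread between genotypes was not tested.

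**Figure D4:**
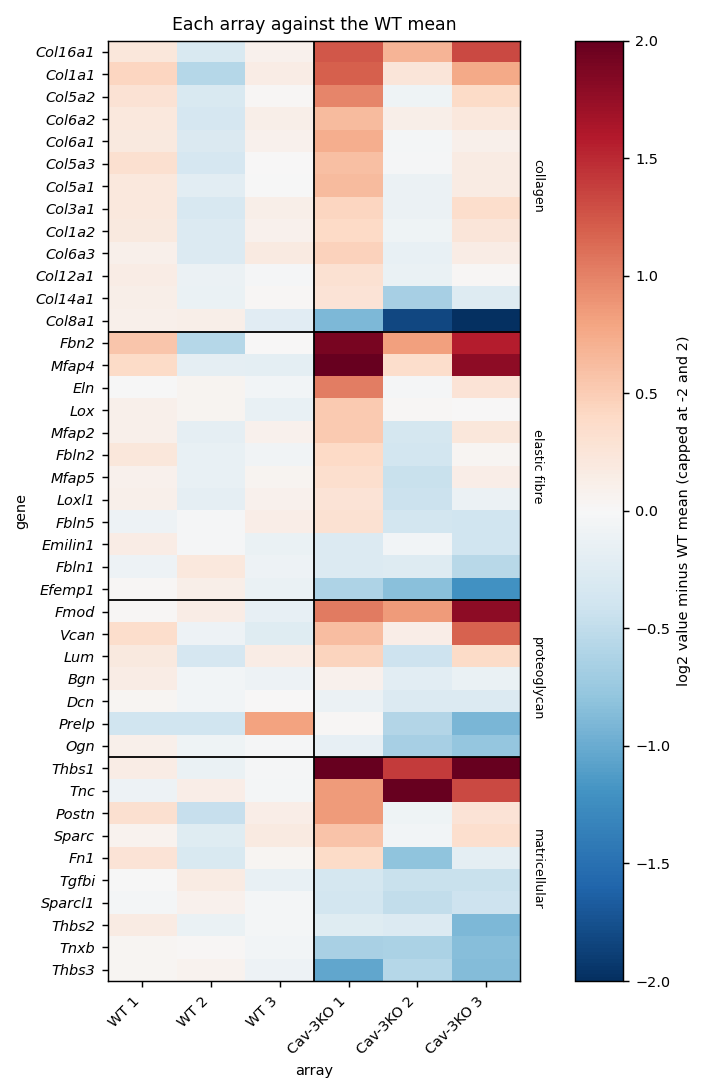
Log2 value of each array minus the wild-type mean, for the 42 matrix genes by class (colour capped at −2 and 2). Cav-3KO 1 is red for most collagens and elastic fibre genes, while Col8a1, Efemp1, Tnxb and Thbs3 are blue in all 3 knockout arrays.

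Of 28 measured genes of collagen synthesis and processing, which encode the enzymes and chaperones that make and trim collagen, 3 were higher (10.7%, against 7.65% of all genes) and 2 lower (7.14%, against 8.51%). Their median was 0.02. Ppib, a prolyl isomerase, and P4hb, a subunit of prolyl 4-hydroxylase and a general disulphide isomerase, rose by 0.75 ± 0.10 and 0.51 ± 0.10 (adjusted p = 0.00494 and 0.0175). Both also serve the folding of other secreted proteins. P3h2, a prolyl 3-hydroxylase, rose by 0.88 ± 0.15 (adjusted p = 0.0115). Pcolce2, which speeds removal of the procollagen C-terminal propeptide, fell by 1.19 ± 0.10 (adjusted p = 0.00120), from 10.03, 10.13 and 9.98 in wild type to 9.01, 8.86 and 8.70 in knockout. The fifth gene past the threshold, named for that reason, was Loxl4, which fell by 0.37 ± 0.09 (adjusted p = 0.0411).

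Of 37 other interstitial matrix genes measured, 3 were higher (8.11%, against 7.65% of all genes) and 7 lower (18.9%, against 8.51%), with a median of −0.05. Vtn, vitronectin, fell by 0.66 ± 0.08 (adjusted p = 0.00355) and Ccn3, a secreted regulator of adhesion, by 0.79 ± 0.12 (adjusted p = 0.00662). Col9a3 and Col13a1, a fibril-associated and a transmembrane collagen, rose by 1.62 ± 0.20 and 1.07 ± 0.14 (adjusted p = 0.00399 and 0.00458).

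Markers of the cells in the gland moved beside these genes, and in bulk tissue fewer cells of a type and less RNA per cell cannot be told apart. Of 20 fibroblast markers that are not among the matrix genes, 1 was higher (5%, against 7.65% of all genes) and 9 lower (45%, against 8.51%). Their median was −0.45, and their summed linear signal was 13388 to 14386 in wild type and 9703 to 11597 in knockout. The exception was Has2, a hyaluronan synthase, which rose by 1.70 ± 0.18, while Ddr2, a collagen receptor, fell by 0.82 ± 0.10 (adjusted p = 0.00239 and 0.00321). The summed signal of the 13 collagens, by contrast, overlapped, at 28750 to 41799 in wild type and 34590 to 54272 in knockout. A linear sum weighs the brightest probe sets most. The brightest collagen sets, of Col1a2 and Col3a1, differed by 0.19 and 0.22. Dimmer sets, not in the sum, gave 1.05 and 0.35 for Col1a2 and 0.57 for Col3a1.

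Of 12 white adipocyte markers 8 were lower (66.7%, against 8.51% of all genes) and 0 higher by limma (7.65% of all genes were higher). At an unadjusted p under 0.05, 0 were higher and 11 lower. Their summed signals were 61536 to 67792 in wild type and 45441 to 50987 in knockout. Pparg, the master regulator of fat cells, fell by 1.11 ± 0.13 and Retn, resistin, by 0.78 ± 0.10. Of 14 luminal markers 9 were higher (64.3%, against 7.65% of all genes) and 1 lower (7.14%, against 8.51%), led by Spint2 (1.49 ± 0.09) and Cldn7 (1.86 ± 0.14). Their summed signals were 10577 to 15765 in wild type and 26726 to 27559 in knockout. Of 12 basal markers 11 were higher (91.7%, against 7.65% of all genes), led by Krt5 (1.25 ± 0.10) and Lamb3 (1.54 ± 0.14). By limma 0 were lower (8.51% of all genes were lower), and 0 were lower at an unadjusted p under 0.05. Their summed signals were 8254 to 9742 in wild type and 15068 to 16263 in knockout.

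Of 11 vascular smooth muscle and pericyte markers 4 were lower (36.4%, against 8.51% of all genes). By limma 0 were higher (7.65% of all genes were higher), and 0 were higher at an unadjusted p under 0.05. Their summed signals were 4595 to 5528 in wild type and 4168 to 4542 in knockout. Cspg4 and Des fell by 0.98 ± 0.15 and 0.74 ± 0.13. Of 12 endothelial markers 1 was higher (Cldn5, 0.97 ± 0.18) and 2 lower, among them Kdr (−0.49 ± 0.11). That is 8.33% and 16.7%, against 7.65% and 8.51% of all genes. Their summed signals were 5200 to 5959 in wild type and 4879 to 5439 in knockout. Of 11 macrophage markers 1 was higher (Cd14, 1.41 ± 0.33) and 1 lower (Mrc1, −0.55 ± 0.13), 9.09% each way and near the shares of all genes. Their sums overlapped, at 11284 to 13792 in wild type and 11376 to 14171 in knockout.

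Of 11 lymphocyte markers 7 were lower (63.6%, against 8.51% of all genes), led by Ms4a1 (−0.88 ± 0.11) and Ptprc (−0.48 ± 0.10). By limma 0 were higher (7.65% of all genes were higher), and 0 were higher at an unadjusted p under 0.05. Their sums were 5451 to 6395 in wild type and 3615 to 4113 in knockout. Skeletal muscle markers varied between glands of the same genotype, with sums of 888 to 22106 in wild type and 543 to 4523 in knockout, and 0 of 13 passed by limma (0 at an unadjusted p under 0.05). The 2 with the smallest p were Mylpf (−1.38 ± 0.83) and Myh2 (−1.33 ± 0.81). Of 5 Schwann cell markers 1 was higher (Sox10, 1.68 ± 0.12) and 1 lower (Pmp22, −0.67 ± 0.18). That is 20% each way, against 7.65% and 8.51% of all genes, on a list of 5. S100b, named for its size, differed by −1.45 ± 0.41 without overlap (adjusted p = 0.0559). By sign 1 of the 5 markers (Sox10) was above 0 and 4 were below, with a median of −0.27. Their sums overlapped, at 3298 to 4271 in wild type and 3372 to 4013 in knockout. The part of any of these cell types in the matrix differences was not tested.

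**Figure D5:**
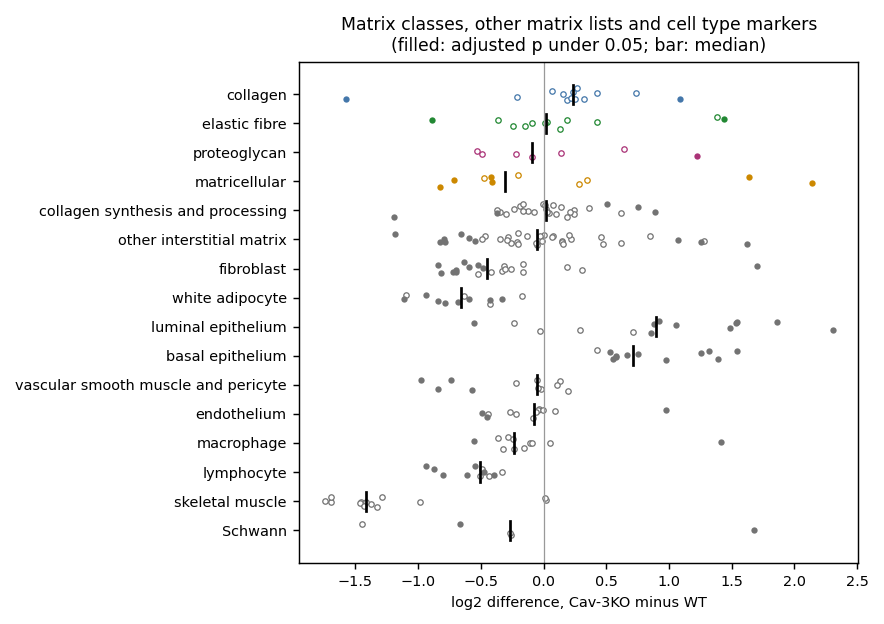
Log2 difference (Cav-3KO minus WT) of each gene in the 4 matrix classes, 2 further matrix lists and 10 cell type marker lists, with filled points past the adjusted threshold and a bar at the median. Collagens centre near 0.23, fibroblast markers near −0.45, and luminal and basal epithelial markers lie mostly above 0.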

How the data were processed

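Glands of both genotypes were compared, 3 arrays each, with groups and replicate numbers from the sample titles. The authors deposited log2 values, with 1 value for each probe set on each array. The submitters' processing notes name RMA for them, with its version not given in the sources used here. RMA corrects background, quantile normalizes arrays and compresses folds of dim probe sets. The 64 control sets were left out, and 45037 probe sets were tested. Names came from the platform annotation, updated through Entrez identifiers with RefSeq (GRCm38.p6): 34945 sets had 1 symbol, 932 several, and 9160 were not listed. The test was a two-sided moderated test from limma 3.58.1, run in R 4.3.3 (functions lmFit, eBayes; 4 residual degrees of freedom), with Benjamini-Hochberg adjustment over all tested sets and a threshold of 0.05. The fit was tested on simulated data. The number of arrays limits the precision.

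Every matrix gene is named; arrays are given for genes past the threshold and the brightest of each class. Of pathway lists up to 4 genes with the smallest p are named, of cell type lists up to 2. Members, classes and lists were chosen with earlier results of these data known, so no test over a list is given. Alternatives were cyclic loess, median centring, a dim filter, another prior, averaged probe sets, fewer probe sets, the replicate number as a block, array weights, each array left out and other thresholds. Figures were drawn with matplotlib 3.10.9.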

Additional observations from a re-analysis of the deposited data

How the results depend on the processing

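Cyclic loess and median centring changed no call among the 42 genes, and over all genes moved the median difference by under 0.02. Calls of Col8a1, Efemp1, Tnxb, Thbs1 and Thbs3 held under all 14 alternative fits. Higher genes numbered 3 with an intensity-dependent, outlier-robust prior (elastic fibre 0, matricellular 1) and 1 at an adjusted p under 0.01, where 2 were lower. Over all genes 1332 were higher with that prior, against 1392 in the main fit. Without probe sets that can match several transcripts 40 genes remained and 3 were higher (0 of 11 collagens, 0 of 7 proteoglycans). Over all genes 1134 of 16591 were higher there. Col16a1 had no probe set left there, so its call was not retested, while Fmod lost its call. Elastic fibre genes higher were 2 with a dim filter, with array weights and with the replicate block. Averaging a gene's probe sets raised the lower count from 6 to 8, with 5 matricellular genes and 1 proteoglycan among them. Over all genes averaging raised it from 1549 to 1691. Leaving out 1 array at a time, higher genes numbered 2 to 7 and lower genes 4 to 6, with the median over the 42 genes from −0.03 to 0.28. Over all genes the same fits gave 629 to 1718 higher and 606 to 1463 lower. By class, higher counts were 0 to 1 for collagens, 0 to 2 for elastic fibre genes, 0 to 2 for proteoglycans and 1 to 2 for matricellular genes. Lower counts were 0 to 1 for proteoglycans and 2 to 3 for matricellular genes, and class medians ran from 0.07 to 0.39, −0.16 to 0.23, −0.18 to −0.02 and −0.45 to −0.15. Fits with 5 arrays test fewer samples; the cause of other losses was not tested.

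Over all probe sets the deviations of same-numbered arrays correlated at −0.05, 0.19 and −0.02 for numbers 1 to 3, so the numbers were not taken as pairs. Among the 13 collagens, however, number 2 was the lowest array of its genotype for 12 genes in WT and for 12 in Cav-3KO. With the replicate block 2 collagens were higher (Col1a1 joining, adjusted p = 0.0101), 2 elastic fibre genes were higher (Mfap4 joining, 0.0248) and 1 proteoglycan was lower (Ogn, 0.0401), while Tgfbi was lost (0.0591).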

Other observations

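Further matrix genes outside the 42 split within a family as well. Among the CCN proteins, secreted regulators of adhesion and growth that are named here for their shared family, Ccn1 had a log2 rise of 1.25 ± 0.22 (SE, adjusted p = 0.0125), from 5.84, 6.19 and 6.13 in wild type to 7.66, 7.49 and 6.77 in knockout. Ccn5 fell by 1.19 ± 0.18 (adjusted p = 0.00706), from 7.86, 8.47 and 8.02 to 6.90, 7.16 and 6.72, and Ccn3 fell as given above. Ccn2 and Ccn4 differed by 0.85 ± 0.34 and 0.47 ± 0.16 (adjusted p = 0.148 and 0.0921). These genes were chosen after their values were seen.

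Spon1, an adhesive matrix protein singled out for its spread, read 10.13, 8.64 and 10.26 in wild type and 10.29, 10.34 and 10.25 in knockout, so WT 2 alone was low.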
